A study of Saccharomyces cerevisiae with 6 samples.

Results

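The 29 H/ACA box small nucleolar RNAs (snoRNAs) of budding yeast were followed through RNA co-immunoprecipitation with the antibody J2, which recognises RNA double strands (dsRNA). The 29 were picked by name from the 15753 features of the deposited table. All 29 were found, the reference annotation of the yeast genome calls each of them an H/ACA snoRNA, and the coordinates of all 29 equal those of that reference. The J2 eluate (3 libraries) holds what stayed on the beads in the first incubation, and the J2 unbound fraction (3 libraries) is the RNA left in solution after a further round with fresh J2 and beads. Both come from total RNA of the same wild-type S288C strain, grown at 25 °C with no further treatment, and the experiment was done 3 times. The RNA was stripped of protein before the antibody was added, so the comparison concerns naked RNA and not particles.

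H/ACA snoRNAs fold into a pair of hairpins joined by a single-stranded hinge, the H box, with an ACA element close to the 3′ end. Most of them base-pair with ribosomal RNA (rRNA) and direct the conversion of a chosen uridine into pseudouridine by Cbf5, the enzyme of the particle. A few act in the cleavage of the rRNA precursor instead. They are made in the nucleus and work in the nucleolus, and their hairpins are short compared with the long duplexes that J2 is used to detect, for which a minimum of about 40 bp is usually given. The family is therefore a test of how J2 deals with RNAs that are highly folded within 1 strand.

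The sequences differ widely while many of the ends are related. Among the 29 annotated genes, 14 (48.3%) have ACA exactly before the last 3 bases and 4 (13.8%) have ATA there. Another 2 (6.90%) have AAA, a share near that of other features, and the rest have none of these. Over all other 15724 features the shares with ACA, ATA and AAA in that place were 1.75%, 2.84% and 4.46%, counted on the strand of the feature only, and 1 of 45 snoRNAs of the other large family, the C/D box snoRNAs, had ACA there. Members with each kind of end are printed here with that triplet in capitals, together with snR80, the most reduced member, which has none of them in that place, and the last 178 bases of snR30, whose annotation closes on the letters aca themselves. The sequences run 5′ to 3′ in DNA letters from the R64 reference, which has the sequence of sacCer3: snR10 from chrVII:345986-346230 (plus strand), snR8 from chrXV:832332-832521 (plus), snR82 from chrVII:316788-317055 (plus), snR80 from chrV:52150-52320 (minus) and the end of snR30 from chrXII:199212-199389 (plus).
snR10: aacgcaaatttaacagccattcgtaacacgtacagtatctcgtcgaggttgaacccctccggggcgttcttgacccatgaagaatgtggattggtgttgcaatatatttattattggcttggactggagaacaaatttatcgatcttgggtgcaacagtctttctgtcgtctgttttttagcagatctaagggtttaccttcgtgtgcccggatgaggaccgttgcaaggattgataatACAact
snR8: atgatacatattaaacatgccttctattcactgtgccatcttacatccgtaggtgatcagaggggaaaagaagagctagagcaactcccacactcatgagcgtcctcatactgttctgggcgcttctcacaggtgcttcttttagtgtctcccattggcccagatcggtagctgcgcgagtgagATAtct
snR82: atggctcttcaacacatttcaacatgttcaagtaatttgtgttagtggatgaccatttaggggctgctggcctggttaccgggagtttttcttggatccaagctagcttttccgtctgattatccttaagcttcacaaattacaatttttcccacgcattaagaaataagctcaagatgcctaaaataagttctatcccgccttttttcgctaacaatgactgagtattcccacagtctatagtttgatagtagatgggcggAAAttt
snR80: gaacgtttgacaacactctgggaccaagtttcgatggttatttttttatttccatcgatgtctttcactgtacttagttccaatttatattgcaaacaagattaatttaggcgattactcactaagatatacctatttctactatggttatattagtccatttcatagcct
snR30: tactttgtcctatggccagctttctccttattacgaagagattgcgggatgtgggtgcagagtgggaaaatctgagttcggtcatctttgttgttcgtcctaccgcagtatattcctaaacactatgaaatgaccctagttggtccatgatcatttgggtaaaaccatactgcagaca

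All 29 H/ACA snoRNAs were reduced in the J2 eluate by limma, edgeR and DESeq2, and 0 were enriched by any of them, also at an unadjusted p under 0.05. The values are normalised read counts, that is reads divided by a size factor of the library, and a fold change is the log2 ratio of eluate over unbound on normalised counts plus 1. A call is an adjusted p under 0.05 in limma, with Benjamini-Hochberg adjustment over all 15753 features. Every member had a mean normalised count above 40, the minimum used by the study, so all 29 were tested. By the same rule 48.0% of the 10188 features above that mean were reduced and 34.6% were enriched. The fold changes of the members ran from -5.90 for snR80 to -2.16 for snR36 with a median of -4.45, which is a 21.9-fold lower level, and their adjusted p-values lay between 2.23e-07 and 4.17e-04. In each of the 29 the highest eluate lay below the lowest unbound library, which held for 49.2% of all features above the mean of 40.

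**Figure D1:**
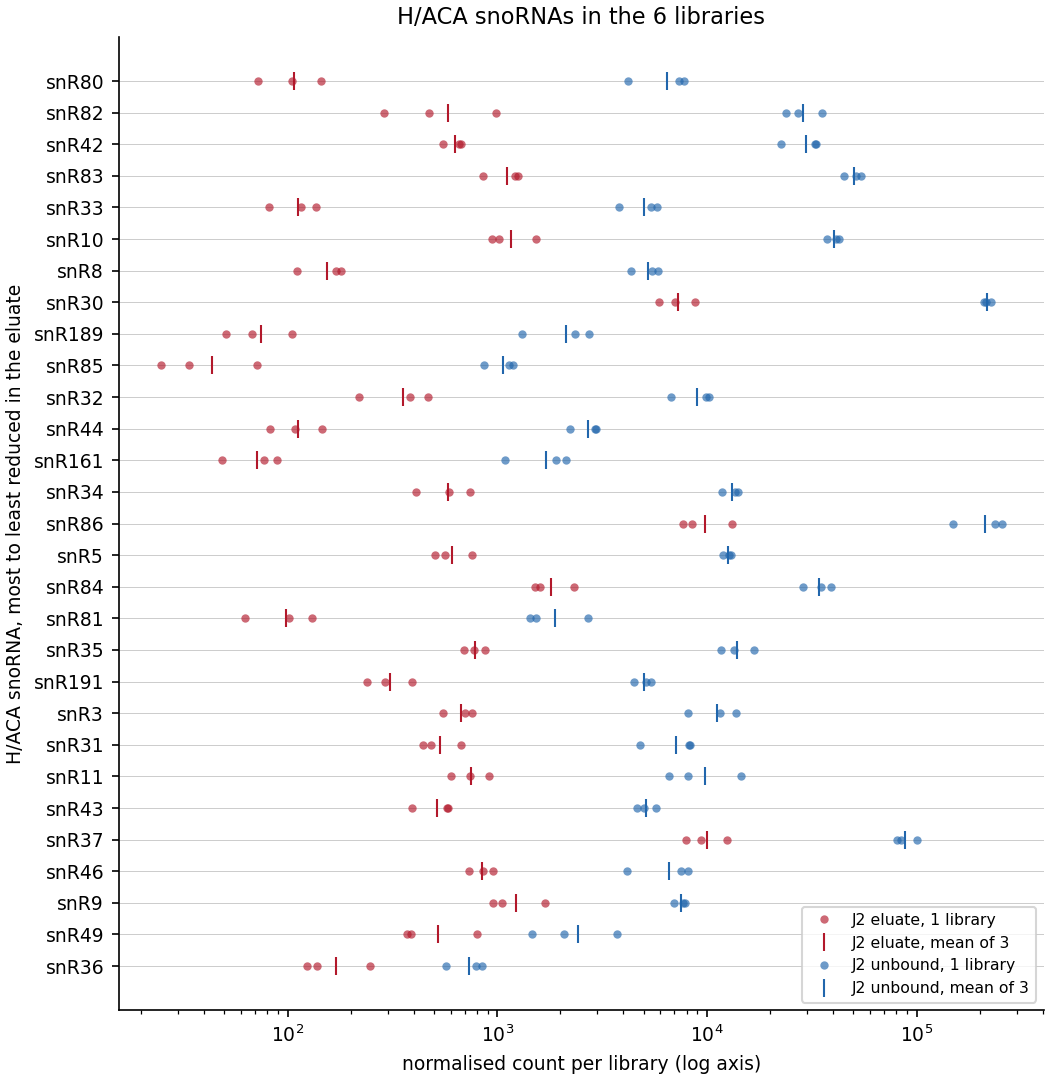
Normalised count (log axis) of each of the 29 H/ACA snoRNAs in the 3 J2 eluate and 3 J2 unbound libraries, with ticks at the means. The members are ordered from snR80 (log2 fold change -5.90) to snR36 (-2.16), and in no member do the eluates reach the unbound libraries.

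The loss can also be read without a size factor, from the share of all counts in a library. H/ACA snoRNAs made up 0.204%, 0.204% and 0.267% of the counts of the eluates, against 2.47%, 2.64% and 2.15% of the counts of the unbound libraries. The mean share was 0.225% ± 0.0362 in the eluates and 2.42% ± 0.249 in the unbound libraries (SD, n = 3 each), a 10.8-fold difference. With 53025 to 88206 counts behind each eluate share the 95% Wilson intervals were narrow, for example 0.203% to 0.206% in eluate 1, and cover counting error only. The groups did not overlap. With 3 against 3 libraries, an exact two-sided permutation test cannot give a p under 0.10, so no test of the share is given. Both snR30 and snR86, the members with the highest counts in the unbound libraries, together held 35.8% to 48.7% of the H/ACA counts in the eluates and 47.9% to 53.8% in the unbound libraries. Without them the mean share was 0.130% ± 0.00695 in the eluates and 1.17% ± 0.0505 in the unbound libraries, an 8.97-fold difference.

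Counts per library summed to between 18645818 and 43141091 over all features. Spearman correlations of log2 counts were 0.948 to 0.985 among the eluates, 0.980 to 0.992 among the unbound libraries and 0.673 to 0.728 between the groups. The shift of all features above the mean of 40 is part of every fold change: its median was -0.46. It was 0.45 with scaling by total counts and 0.85 with size factors from mRNAs alone, and under these scalings the median of the members was -3.53 and -3.13. All 29 were still reduced with total counts and 28 with mRNA size factors, where snR49 was not called (-0.89, adjusted p = 0.065). A fold change is thus relative to the other RNAs of a library and does not give the percentage of a snoRNA that J2 bound.

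The members that act in cleavage of the rRNA precursor were strongly reduced. snR30 is essential and is required to release the precursor of the 18S rRNA. Its normalised counts were 7072, 5903 and 8798 in the eluates, against 226519, 214805 and 210859 in the unbound libraries. The log2 fold change was -4.92 ± 0.23 (SE of the limma fit, adjusted p = 2.70e-07), which left snR30 at a level 30.3-fold lower in the eluate. snR10, which is needed for early cleavages of the precursor and also guides a pseudouridine of the 25S rRNA, had 1537, 1014 and 942 in the eluates, against 41319.9, 42647 and 37244 in the unbound libraries. Its fold change was -5.15 ± 0.21 (adjusted p = 2.23e-07). Eluate 1 was the highest eluate for snR10, while the unbound libraries were close to each other for both RNAs.

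The remaining members are guides of pseudouridylation, and the kind of rRNA they act on did not separate them. The 18 annotated for the large subunit and not the small one, which includes snR10, had a median log2 fold change of -4.32 (-5.79 to -2.66). The 6 annotated for the 18S rRNA of the small subunit only had a median of -4.35 (-5.51 to -2.16), and the 4 that guide on both had a median of -4.71 (-5.90 to -2.20). The ranges of these groups overlap almost entirely. Of the other roles recorded for single members, snR43 also guides on 5.8S rRNA (-3.33), snR81 also guides on the U2 spliceosomal RNA (-4.25) and snR37 has a structural part in the early large subunit precursor (-3.17).

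The 5 members with the largest reduction were snR80, snR82, snR42, snR83 and snR33. snR80, a guide for both subunits, had 105, 72.1 and 145 in the eluates, against 7746, 7360.3 and 4209 in the unbound libraries, a log2 fold change of -5.90 ± 0.30. snR82, a guide for 3 positions of the 25S rRNA, had 470.4, 289 and 992 in the eluates, against 27339, 23794 and 35274 in the unbound libraries, a change of -5.79 ± 0.38. In both the spread within a group was wide: eluate 3 was the highest eluate of each, and for snR80 unbound 3 was also the lowest unbound library. snR42, a guide for the 25S rRNA, had 669, 549.9 and 661 in the eluates, against 33329, 32750.2 and 22565 in the unbound libraries (-5.54 ± 0.20). snR83, a guide for the 18S rRNA, had 1256, 852 and 1221 in the eluates, against 51324, 44846 and 54400.2 in the unbound libraries (-5.51 ± 0.20). snR33, another guide for the 25S rRNA, had 137, 81.8 and 116 in the eluates, against 5399, 5780.2 and 3791 in the unbound libraries (-5.48 ± 0.24). In these 5 the unbound mean was at least 44.7 times the eluate mean, with adjusted p-values between 2.23e-07 and 9.15e-07.

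The 5 members with the smallest reduction were snR37, snR46, snR9, snR49 and snR36. snR37 had 12534, 9427 and 7919.7 in the eluates, against 84459, 80632 and 100003 in the unbound libraries (-3.17 ± 0.24), which made it the member with the highest eluate level per kilobase of gene. snR46, a 25S guide, had 954, 729.7 and 851 in the eluates, against 8165, 7562 and 4173 in the unbound libraries (-2.92 ± 0.25). snR9, a guide for 2 nearby positions of the 25S rRNA, had 1695, 1052 and 952 in the eluates, against 7884, 7008 and 7722 in the unbound libraries (-2.66 ± 0.22). Eluates and unbound libraries remained apart in all of these, by a factor of 4.13 or more between the closest libraries. snR49, which guides at 4 positions in both subunits, had 389.8, 372 and 799 in the eluates, against 2076, 3709 and 1468 in the unbound libraries (-2.20 ± 0.37, adjusted p = 4.17e-04). snR36, an 18S guide, had 138, 124 and 249 in the eluates, against 847, 795 and 568 in the unbound libraries (-2.16 ± 0.28, adjusted p = 7.62e-05). In both of them eluate 3 was clearly above the other eluates and unbound 3 was the lowest unbound library. The comparison of the libraries numbered 3 gave only -0.88 for snR49 and -1.19 for snR36. For the libraries numbered 1 the values were -2.41 and -2.61, and for those numbered 2 they were -3.31 and -2.67.

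The order of the members was similar in the repeats of the experiment. Across the 29 snoRNAs, Spearman's rho between the fold changes of the libraries numbered 1 and 2 was 0.94, and with those numbered 3 it was 0.72 for either, a description over snoRNAs of the same libraries. The median of the members was -4.52, -4.65 and -3.99 in the repeats numbered 1, 2 and 3. The unbound level per kilobase ran from 4049 normalised counts for snR36 to 358736 for snR30, and the eluate level per kilobase from 254 for snR85 to 25804 for snR37. Abundance and reduction were only loosely related (rho = -0.22 between mean unbound count and log2 fold change, n = 29, which share the unbound value).

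A pair of members lie in introns of protein genes. snR191, which guides on the 25S rRNA, lies inside the intron of NOG2, the gene of a GTPase of large subunit assembly, and had 393, 292 and 238 in the eluates, against 4482, 5406 and 5104 in the unbound libraries (-4.04 ± 0.20, adjusted p = 3.25e-07). NOG2, whose annotated segments in the table leave out the snoRNA, had 2835, 1908 and 1653 in the eluates, against 7604, 7027 and 5651 in the unbound libraries (-1.69 ± 0.23). snR44 lies inside an intron of RPS22B, a gene of a small subunit protein, and had 108, 82.4 and 146 in the eluates, against 2963, 2942 and 2233 in the unbound libraries (-4.61 ± 0.23, adjusted p = 3.25e-07). RPS22B, whose segments also leave out the snoRNA, had 509, 392 and 628 in the eluates, against 5566, 5263 and 7139 in the unbound libraries (-3.57 ± 0.21). Each snoRNA thus had a lower fold change than the gene around it, a difference that was not tested. Besides these 2, another 3 members (snR10, snR80 and snR86) overlap a segment of another feature of their own strand, and a read may be counted in each. YGL088W, an open reading frame that contains snR10, had 37553 to 42927 normalised counts in the unbound libraries, close to those of snR10 itself. The 24 members that overlap no other feature of their strand, by segment or by span, were all reduced, with a median of -4.32.

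Compared with other classes of RNA the family stood at the low end. All 29 lay below the median of the 5724 mRNAs above the mean of 40, which was -1.39, and 0.489% of those mRNAs were reduced more than the median H/ACA snoRNA. Of the 45 C/D box snoRNAs, which guide 2′-O-methylation, 37 were above the mean of 40. Of these 32 were reduced, 3 were enriched (snR53, snR62 and snR67) and 2 were not called, with a median of -2.57 (26 reduced and 3 enriched with mRNA size factors). C/D snoRNAs are shorter, 78 to 255 bases against 161 to 1004 bases of the H/ACA family, and had lower counts. The 5 C/D snoRNAs at least as long as the shortest H/ACA snoRNA, a group formed after seeing the data, had a median of -5.08 (-5.11 to -3.93). The difference between the families was not tested.

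**Figure D2:**
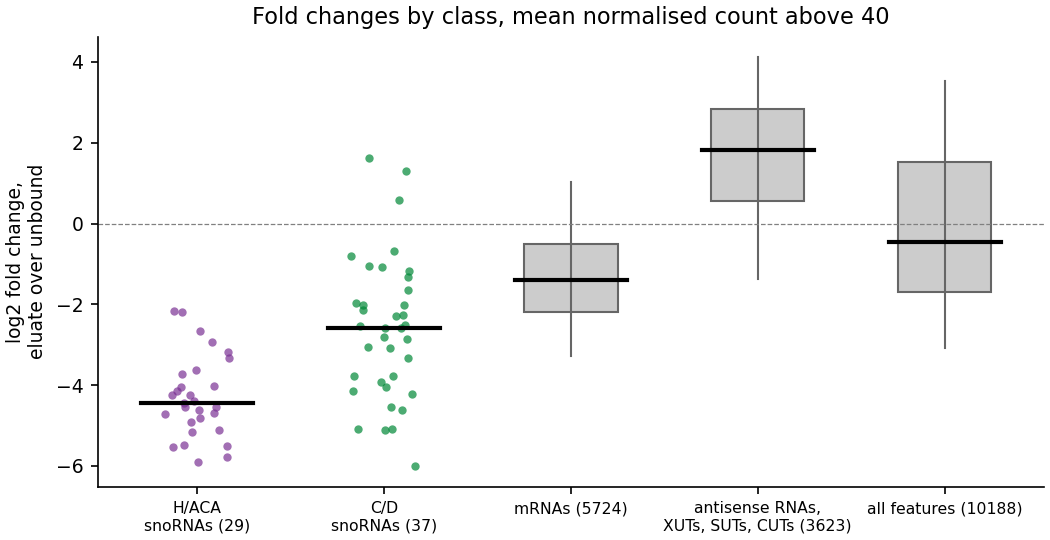
Log2 fold change of eluate over unbound for single H/ACA and C/D snoRNAs (points) and for mRNAs, non-coding transcripts and all features (box from the lower to the upper quartile, line from the lowest to the highest 5%), each above a mean normalised count of 40. Black bars are medians, -4.45 for H/ACA snoRNAs and -2.57 for C/D snoRNAs, and all 29 H/ACA points lie below the mRNA median of -1.39.

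The predicted folds of the members had short uninterrupted helices. Minimum free energy structures were computed from the reference sequences with RNAfold and are predictions only. The longest uninterrupted helix of a member had 7 to 16 bp (median 10), and none of the 29 reached 40 bp. If bulges and interior loops are allowed, the longest unbranched stem had 20 to 293 bp (median 27), and it passed 40 bp in snR86 (293 bp), snR30 (76 bp) and snR82 (57 bp). These 3 were reduced like the rest, with log2 fold changes of -4.45, -4.92 and -5.79. snR86 is the longest member, a guide for the 25S rRNA, and had 8468, 7667 and 13165 in the eluates, against 235682, 254830.0 and 148552 in the unbound libraries, so that unbound 3 stood below the other unbound libraries and eluate 3 above the other eluates.

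**Figure D3:**
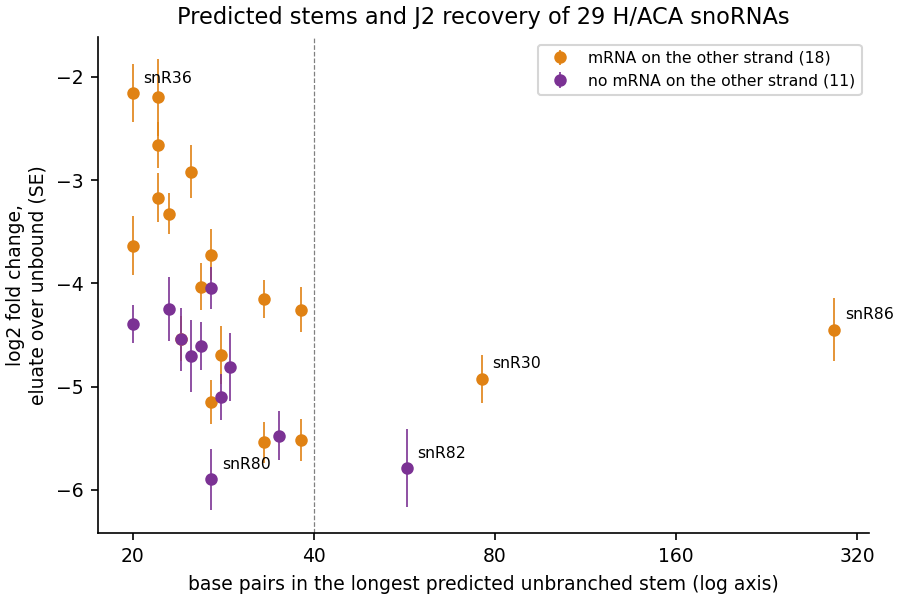
Log2 fold change (eluate over unbound, bars are the SE of the limma fit) against the number of base pairs in the longest predicted unbranched stem (log axis) for the 29 H/ACA snoRNAs, with the dashed line at 40 bp. The 3 members right of the line, snR82, snR30 and snR86, have values of -5.79, -4.92 and -4.45, and the 5 least reduced members have stems of 20 to 25 bp.

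The relation to predicted structure depended on the measure. Members with longer unbranched stems, bulges and interior loops allowed, tended to have lower fold changes, while longer uninterrupted helices did not go with lower ones. Spearman's rho between stem length and log2 fold change was -0.67 over the 29 members. It was 0.23 for the longest uninterrupted helix, 0.20 for the free energy per 100 bases, -0.10 for gene length and -0.22 for GC content. These 5 relations describe the family, whose members were measured in the same libraries. Each 50-base window of every member occurs once in the genome, so reads of that length can be placed. The library kit named in the methods selects polyadenylated RNA in its standard form, whereas mature snoRNAs carry no poly(A) tail. Whether the counts come from mature snoRNAs or from polyadenylated precursors was not tested.

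The strand opposite to the family gave changes in both directions. All 29 members have a feature of the table opposite to them, and in 18 of them this is an mRNA, including its untranslated ends as annotated in the table. The overlap was 37 to 351 bases (median 158). In 15 of the 18 pairs the 3′ end of the mRNA runs into the snoRNA gene, and 3 mRNA features (YJR129C, KTR2 and VMA9) contain the snoRNA gene whole. The list of opposite mRNAs was drawn up after the values had been seen. Of the 18 mRNAs, 9 were enriched and 9 reduced, whereas 8.00% of all mRNAs above the mean of 40 were enriched and 74.4% were reduced. Their median log2 fold change was 0.06, against -1.39 for all mRNAs. The 10 mRNAs opposite C/D snoRNAs had 4 enriched and 5 reduced, with a median of -0.48, so both directions were found next to both families.

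The bases covered by the opposite mRNA are shown in capitals in 6 members, those beside the 4 most enriched mRNAs and the pair with the smallest snoRNA reduction. An RNA of the other strand would be complementary to the capitals. The genes are snR11 at chrXIII:652275-652532 (plus strand), snR9 at chrXV:407948-408134 (minus), snR3 at chrX:663749-663942 (plus), snR46 at chrVII:545370-545566 (plus), snR49 at chrXIV:716120-716284 (plus) and snR36 at chrXV:680685-680866 (minus), R64 reference.
snR11: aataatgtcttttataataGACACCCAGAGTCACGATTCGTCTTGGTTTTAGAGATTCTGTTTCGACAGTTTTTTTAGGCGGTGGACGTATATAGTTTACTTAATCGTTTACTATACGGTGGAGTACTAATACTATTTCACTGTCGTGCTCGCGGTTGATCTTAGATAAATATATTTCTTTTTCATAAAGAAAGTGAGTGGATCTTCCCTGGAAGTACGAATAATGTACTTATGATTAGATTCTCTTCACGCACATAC
snR9: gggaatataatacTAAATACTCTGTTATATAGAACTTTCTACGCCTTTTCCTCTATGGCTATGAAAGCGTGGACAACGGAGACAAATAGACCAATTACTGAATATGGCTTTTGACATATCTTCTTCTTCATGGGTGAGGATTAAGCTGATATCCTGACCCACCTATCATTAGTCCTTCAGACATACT
snR3: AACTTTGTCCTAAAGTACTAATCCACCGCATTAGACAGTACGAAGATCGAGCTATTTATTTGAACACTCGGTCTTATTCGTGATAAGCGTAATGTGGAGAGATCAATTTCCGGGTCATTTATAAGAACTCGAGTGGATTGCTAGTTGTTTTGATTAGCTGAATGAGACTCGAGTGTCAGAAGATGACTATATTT
snR46: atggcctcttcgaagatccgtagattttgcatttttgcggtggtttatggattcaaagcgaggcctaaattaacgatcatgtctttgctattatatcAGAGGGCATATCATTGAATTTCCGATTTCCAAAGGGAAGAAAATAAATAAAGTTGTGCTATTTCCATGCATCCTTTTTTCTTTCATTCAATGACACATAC
snR49: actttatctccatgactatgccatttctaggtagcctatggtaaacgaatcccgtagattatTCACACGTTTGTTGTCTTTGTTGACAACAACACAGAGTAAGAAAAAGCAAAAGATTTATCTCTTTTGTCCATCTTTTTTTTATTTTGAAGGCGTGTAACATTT
snR36: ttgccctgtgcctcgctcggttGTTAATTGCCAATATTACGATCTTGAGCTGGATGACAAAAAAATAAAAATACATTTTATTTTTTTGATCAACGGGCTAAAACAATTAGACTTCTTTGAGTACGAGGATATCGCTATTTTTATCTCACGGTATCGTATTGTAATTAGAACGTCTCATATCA

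CMC4, which encodes a small protein of the mitochondrial intermembrane space, covers 239 of the 258 bases of snR11. It had 2098, 1545 and 2364 in the eluates, against 41.7, 85 and 55.4 in the unbound libraries, a log2 fold change of 5.06 ± 0.28 (adjusted p = 4.17e-07), while snR11 had 738, 602 and 909 in the eluates, against 8088, 14570.0 and 6588 in the unbound libraries (-3.63 ± 0.29). The mRNA therefore rose where the snoRNA fell: CMC4 came to 0.623% of the snR11 level in the unbound libraries and to 267% of it in the eluates. GLO4, the gene of a mitochondrial glyoxalase, covers 174 of the 187 bases of snR9 and had 4284, 3899.8 and 3643 in the eluates, against 244, 213 and 223 in the unbound libraries (4.11 ± 0.16, adjusted p = 2.23e-07). YJR129C, called EFM3 in the reference and coding for a methyltransferase, contains snR3 whole and had 4686, 4789 and 4632 in the eluates, against 438, 368 and 423 in the unbound libraries (3.52 ± 0.15, adjusted p = 2.27e-07). For snR3 itself the counts were 704, 550.5 and 762 in the eluates, against 11598, 13835 and 8094 in the unbound libraries (-4.03 ± 0.23). POP6, which encodes a subunit of RNase P and RNase MRP, covers 100 of the 197 bases of snR46 and had 2548, 2094 and 2363 in the eluates, against 267, 234 and 249 in the unbound libraries (3.22 ± 0.16, adjusted p = 3.25e-07). In each of these 4 mRNAs all eluates lay above all unbound libraries. They were picked as the most enriched of the 18, so this separation follows from the choice. Among all mRNAs above the mean of 40 it held for 8.68%.

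The other 5 enriched mRNAs moved less. KTR2, a mannosyltransferase gene that contains snR42, had 1452, 1549.6 and 1279.7 in the eluates, against 627, 577 and 531 in the unbound libraries (1.30 ± 0.16), next to a snoRNA among the 5 most reduced. MMS2, a gene of DNA damage tolerance, overlaps the last 75 bases of snR10 and had 1819.6, 1506 and 1787 in the eluates, against 755, 641 and 862 in the unbound libraries (1.18 ± 0.18). Neither overlapped between groups. ODC2 (mitochondrial carrier, opposite snR35), BRE5 (cofactor of a ubiquitin protease, opposite snR49) and RBA50 (RNA polymerase assembly, opposite snR84) had log2 fold changes of 0.89 ± 0.18, 0.71 ± 0.18 and 0.64 ± 0.17, with adjusted p-values between 0.00135 and 0.00579. BRE5 was abundant, with 12927, 11369 and 10208 in the eluates, against 7281, 6313 and 7392 in the unbound libraries.

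The 9 reduced mRNAs included some of the most abundant. RPL42B, a ribosomal protein gene with the shortest overlap (37 bases with snR32), had 1453, 1148 and 1743 in the eluates, against 23801, 21626 and 20647 in the unbound libraries (-3.94 ± 0.19). FAA4, a fatty acid activation gene opposite snR86, changed by -2.83 ± 0.18 and ADE16, a purine synthesis gene opposite snR30, by -2.45 ± 0.18. The remaining 6 had log2 fold changes between -1.39 and -0.52, in the order PAM16 (mitochondrial import, snR37), SSO2 (membrane fusion, snR83), CAF20 (translation repressor, snR31), VMA9 (vacuolar proton pump, snR43), SER1 (serine synthesis, snR36) and STE23 (protease, snR34). Of these 6, CAF20, VMA9, SER1 and STE23 lie above 0 when size factors come from mRNAs alone, and all but CAF20 also with total counts. With mRNA size factors 12 of the 18 were enriched and 3 reduced, with 32.8% of all mRNAs enriched and 37.6% reduced.

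**Figure D4:**
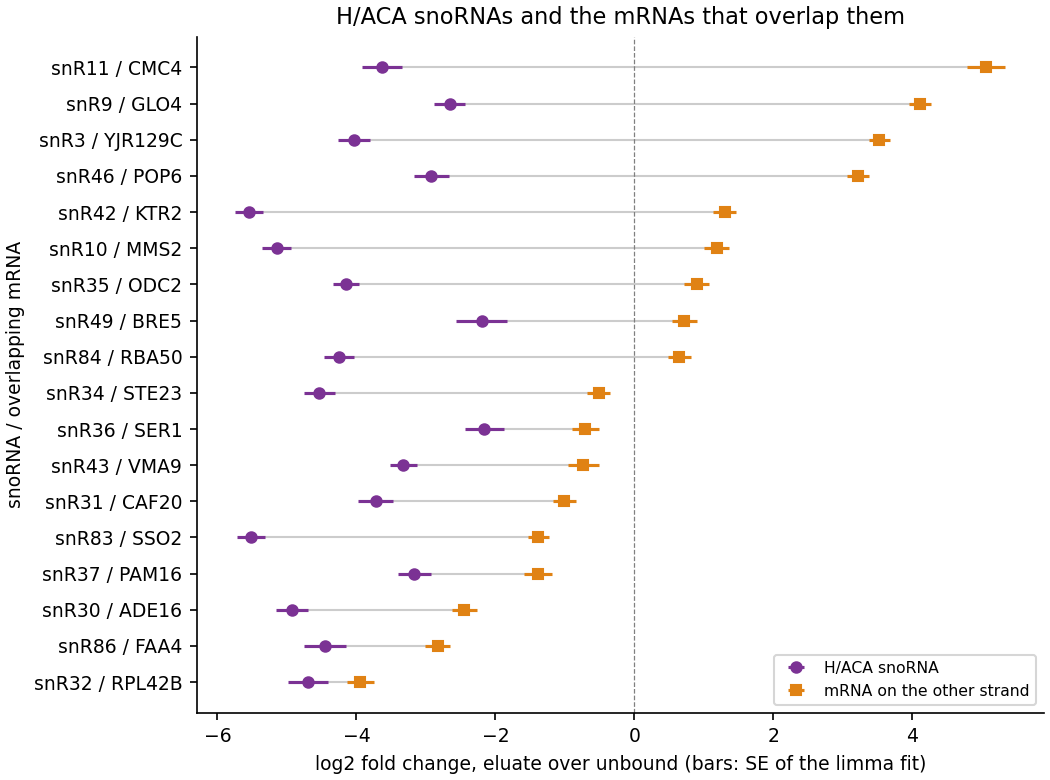
Log2 fold change (eluate over unbound, bars are the SE of the limma fit) of 18 H/ACA snoRNAs (circles) and of the mRNA that overlaps each on the other strand (squares), ordered by the mRNA. All circles lie below 0, and 9 squares lie above 0, from RBA50 (0.64) to CMC4 (5.06).

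The mRNAs that were rare next to their snoRNA tended to have the higher fold changes. Over the 18 pairs, Spearman's rho between the log2 ratio of mRNA to snoRNA level per kilobase in the unbound libraries and the log2 fold change of the mRNA was -0.55, where both hold the unbound level of the mRNA. It was 0.30 for the overlap in bases. With the fold change of the snoRNA rho was 0.27 for that of the mRNA and 0.19 for the ratio. The snoRNAs with an mRNA opposite had a median log2 fold change of -4.09 (-5.54 to -2.16, n = 18) and the 11 without one had -4.71 (-5.90 to -4.04). The 9 members with the smallest reduction all had an mRNA opposite, and of the 5 with the largest reduction 2 had one. This split was noticed in the data and was not tested.

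Non-coding features opposite the family were also mostly higher in the eluate. There are 22 of them, annotated as antisense RNAs or as CUTs, SUTs or XUTs (cryptic unstable, stable unannotated and Xrn1-sensitive unstable transcripts). Most were rare, with 20 of 22 at or under a mean of 40 in the unbound libraries, so no filter on the mean was applied here. By limma 18 of the 22 were enriched, 1 was reduced and 3 were not called. Among all 7609 features of these classes 60.9% were enriched and 8.86% reduced. Of the 8 above a mean of 40 over all libraries, 7 were enriched and 1 reduced. The 7 had unbound means of 2.87 to 31.9 and passed this filter only through their eluates. Their enrichment thus follows largely from the filter and is no separate result. With that filter, which favours features high in the eluate here too, 73.1% of these classes were enriched, and 81.7% of the antisense RNAs alone. A difference from these shares was not tested. Opposite snR84, antisense4440 had 350.0, 392 and 840.3 in the eluates, against 10.4, 17.7 and 11.6 in the unbound libraries (5.13 ± 0.37, adjusted p = 1.44e-06). Opposite snR161, CUT012 had 149, 154 and 252 in the eluates, against 7.44, 5.31 and 9.02 in the unbound libraries (4.48 ± 0.34, adjusted p = 2.08e-06). Both had few counts in the unbound fraction. The reduced one was antisense3465 opposite snR86, with 58.5, 86 and 124 in the eluates, against 246, 370.2 and 303 in the unbound libraries (-1.81 ± 0.30), and the features opposite snR82, snR83 and snR30 were not called (1.36, 0.09 and -0.76). With the libraries paired by number, antisense1992 opposite snR82 was called enriched (adjusted p = 0.0285 with the block, 0.0506 without it).

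Counts on the strand opposite a member varied widely in the unbound libraries. The mean normalised count of the opposite mRNA ran from 0.623% of that of the member (CMC4 beside snR11) to 1249% (SER1 beside snR36). BRE5 stood at 289% of snR49 and RPL42B at 246% of snR32. Whether reads of an abundant opposite mRNA were counted for the snoRNA was not tested. In the eluates the highest mRNA levels relative to the member were 3332% (SER1 beside snR36) and 2209% (BRE5 beside snR49). The 8 antisense features that lie wholly within a member had at most 0.596% of the normalised count of that member in any unbound library. The table gives 1 count per feature, and whether the enriched mRNA reads come from the stretch that overlaps the snoRNA was not tested.

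The mRNAs of proteins that build H/ACA particles or process snoRNA precursors were mostly reduced as well. Of 17 genes, 16 were reduced, none was enriched and TGS1, which makes the cap of snoRNA precursors trimethylated, was not called (0.27 ± 0.15, adjusted p = 0.124). At an unadjusted p under 0.05 limma and DESeq2 also gave 0 enriched, whereas edgeR, which scales by the trimmed mean of M-values (TMM) here, called TGS1 enriched (0.44, adjusted p = 0.0199). The median was -2.47, and 74.4% of all mRNAs were reduced. NHP2, a core protein, had 351, 271 and 319 in the eluates, against 5762, 5178 and 5943 in the unbound libraries (-4.17 ± 0.17), GAR1 and NOP10 of the core changed by -3.84 ± 0.35 and -3.68 ± 0.17, and CBF5, the pseudouridine synthase, by -2.08 ± 0.20. GAR1 was the least even of them, with 252 to 775 in the eluates. The assembly factors NAF1, SHQ1, RVB1 and RVB2 lay between -3.90 and -2.03. The 9 genes of snoRNA processing ran from -3.47 for MTR4, a helicase of the nuclear exosome, to TGS1, with RNT1, the RNase III that cuts dsRNA hairpins in snoRNA precursors, at -2.60.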

How the data were processed

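The deposited table holds, per feature and library, a normalised count signal. Per the study's methods the authors aligned single reads of 50 bases to sacCer3 with STAR. They counted them with featureCounts (Subread 1.5.0-p1) over exons or introns of an Ensembl set with added UTRs and non-coding transcripts, and processed the data with DESeq2 (DESeq2 1.24.0, R 3.6.1). The methods do not say how the deposited values were scaled, and they were taken to be reads divided by a size factor of the library. The strand setting and the treatment of reads in several features are not given in the sources used here. The authors' own fold changes, p-values and group means in the table were not used. Lines repeated per segment were collapsed (47860 lines, 15753 features), and division by the value of 1 read returned whole reads for 100% of values (tolerance 0.0101). The plan assumed raw counts, and the main test became limma 3.58.1 (lmFit, eBayes, trended prior) after adding 1 to the normalised counts and taking log2, which understates changes of low features. Alternatives were edgeR 4.0.16 and DESeq2 1.42.0 on the recovered reads, other scalings, pseudocounts of 0.5 and 10, a replicate block, no filter on the mean and leaving out each library. Deviations of same-numbered eluate and unbound libraries correlated at 0.228, 0.321 and 0.299. Those of differently numbered libraries correlated at -0.368 to 0.125, so the numbers were taken to pair the samples. The main fit left this pairing out, and the replicate block included it. The depth was 18645818 to 43141091 counts per library, where 3 counts correspond to 1.47 to 5.31 normalised counts. Structures were predicted with RNAfold 2.7.2. Members and lists were chosen with earlier results of these data known. By a set rule, values in every library are given for snR30, snR10, those in introns and the 5 members at each end of the order of fold changes. snR86, snR11 and snR3 were added after their values were seen, and snR43 and snR81 are named for their recorded roles.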

Additional observations from a re-analysis of the deposited data

How the results depend on the processing

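All 29 members kept their direction under all 14 alternative fits (406 values), and 405 of these kept the call. The exception was snR49 with size factors from mRNAs alone (log2 fold change -0.89, adjusted p = 0.065, against 4.17e-04 to start with), which left 28 members reduced. Leaving out 1 library left 29 reduced in every case, with a median between -4.61 and -4.31. The replicate block left all calls among the members unchanged, with 29 reduced, and among the opposite mRNAs. It called 1 more C/D snoRNA (33 reduced) and 1 more opposite non-coding feature (19 enriched). The median became -3.53 with total counts and -3.13 with mRNA size factors. Restricting the members to the 11 with no mRNA opposite leaves 11 reduced, by its construction. The mean eluate share was 0.277% when the total was taken over features with no same-strand overlap, for members of that kind. The list of opposite mRNAs and its alternatives were chosen after seeing the data. All 9 enriched opposite mRNAs kept their call under the 14 fits and 3 of the 9 reduced ones did. The number reduced was 4 with total counts and 3 with mRNA size factors, and 7 to 9 when a library was left out. With total counts STE23 (0.40), SER1 (0.21) and VMA9 (0.18) changed sign, and with mRNA size factors STE23 (0.80), SER1 (0.61), VMA9 (0.58) and CAF20 (0.31). Leaving out unbound 1 ended the calls of STE23 (-0.50) and VMA9 (-0.68), and leaving out unbound 3 that of STE23 (-0.47). Among the mRNAs of particle and processing proteins, the number enriched was 1 (TGS1) rather than 0 with TMM, total counts and mRNA size factors. Depth limits the rare opposite-strand features most, since 3 counts in an unbound library are up to 5.31 normalised counts.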
